A study of Homo sapiens with 6 samples.

Results

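The genes described here build ribosomes, and they comprised 60 genes chosen by symbol out of the 58870 rows of an RNA sequencing table: 8 subunits of RNA polymerase I (Pol I), 6 of its initiation factors, and 46 factors that process ribosomal RNA and assemble the small and large ribosomal subunits. Each symbol matched exactly 1 row, and 3 subunits are listed under older names (TWISTNB for POLR1F, CD3EAP for POLR1G and ZNRD1 for POLR1H). HEK-293T, a line of human embryonic kidney cells that grows without limit in culture, was studied as wild type (WT, genotype Thumpd+/+) and as THUMPD1 KO, in which CRISPR-Cas9 had disrupted THUMPD1, with 3 libraries of each and no further treatment. The KO line came from single-cell sorting, so that features of the clone and effects of the genotype cannot be told apart. THUMPD1 binds tRNA and guides the enzyme NAT10 to acetylate cytidine in leucine and serine tRNAs. The study cited a published single-cell screen in which the signature of THUMPD1 loss came closest to that of losing ribosome synthesis genes, Pol I subunits among them. That screen was a separate experiment and is not examined here. The question followed here is whether the transcripts of the Pol I and ribosome assembly machinery themselves differed in level between these libraries.

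Pol I has a single main task in the nucleolus, the transcription of the long precursor that holds the 18S, 5.8S and 28S ribosomal RNAs. UBTF and the selectivity factor SL1 (TBP with the TAF1 proteins) mark the promoter, and RRN3 carries the polymerase to it. The precursor is then modified by box C/D and box H/ACA small nucleolar ribonucleoproteins (snoRNPs), folded and cut within the small subunit processome, and passed on to separate small and large subunit precursors that mature on their way to the cytoplasm. Growing and dividing cells keep this pathway active, and many of its genes respond to the transcription factor MYC.

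The labels were checked with the targeted gene. THUMPD1 stood at 77.3, 84.6 and 80.8 CPM (expected counts scaled to the library total) in WT replicates 1, 2 and 3 and at 10.2, 12 and 11 CPM in KO replicates 1, 2 and 3, a log2 fold change of −2.87 ± 0.085 (SE). The 6 libraries held 32225646 to 44099898 expected counts. Of the markers fixed for the labelled kidney origin, PAX2, LHX1, KRT8 and KRT18 were detected, PAX8 averaged 0.0085 CPM in WT and 0 in KO, and the mature nephron genes UMOD and AQP2 were at 0 in every library. NPHS1, SLC12A1, PTPRC and PECAM1 all averaged below 0.1 CPM in both genotypes, and COL1A1 averaged 14.3 CPM in WT and 10.3 CPM in KO. Of all 15088 genes tested, 4025 (26.7%) passed an adjusted p of 0.05 with limma-voom, the test of the study. Of these, 2066 (13.7%) were higher and 1959 (13.0%) lower in KO, and this is the background for each count below. Nothing in the labels says that the libraries of a genotype came from separate cultures, so p values measure the spread between these libraries. In bulk RNA, fewer cells of a kind and less RNA per cell cannot be told apart.

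All 60 genes were expressed and tested. The lowest value was 11.4 CPM and the highest 1766 CPM, and no gene fell under 424 counts in any library. The genes together took 9973 ± 312 CPM in WT and 10041 ± 389 CPM in KO (SD, n = 3 each), a difference smaller than the spread within either genotype. Of the 60, 7 (11.7%) passed the test, against 26.7% of all genes. UTP4, NIP7, NVL and TAF1B were higher in KO, and RRN3, PES1 and UBTF were lower. The fitted differences of the 7 lay between −0.36 and 0.23 on the log2 scale. No member changed by more than 0.5 in size, a size passed by 8.48% of all genes tested. The median log2 fold change over the 60 was 0.015, beside 0.016 over all genes, and 33 members lay above 0 and 27 below. With TMM library sizes the median over the 60 was −0.0049, so it has no stable sign. The 53 members that did not pass lay between −0.13 and 0.14, and the 95% intervals of 52 of them fell within 0.3 of 0. The plot of all 60 log2 fold changes shows the 7 genes scattered over 4 of the 9 steps.

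**Figure D1:**
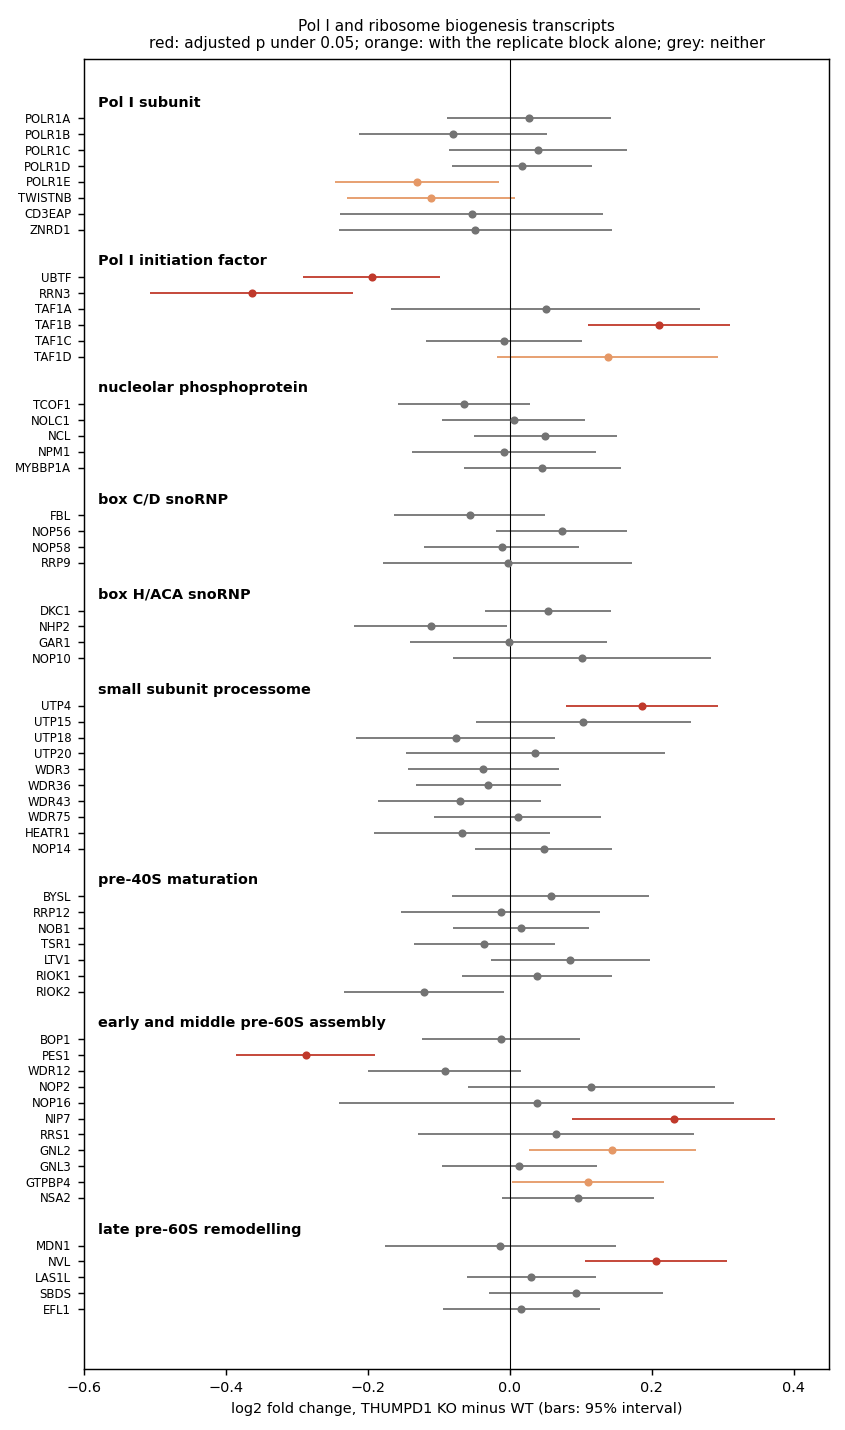
Log2 fold change (KO minus WT) of each of the 60 genes with its 95% interval from limma-voom, grouped by step of ribosome production. Most points sit within 0.13 of 0, RRN3 at −0.36 and PES1 at −0.29 lie farthest to the left, and NIP7 at 0.23 farthest to the right.

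Libraries with the same replicate number deviated together weakly, with correlations of 0.171, 0.147 and 0.138 for replicates 1, 2 and 3. With this number as a block, the limma-voom model called 12 of the 60 (20.0%, 7 higher and 5 lower) and 35.1% of all genes. The genes added by the block were TAF1D, GNL2 and GTPBP4, higher in KO, and the Pol I subunits POLR1E and TWISTNB, lower in KO. Replicate 1 was the lowest of the 3 WT libraries for 39 of the 60 genes (65.0%), against 30.5% of all genes tested. Among the KO libraries it was the lowest for 36 (60%), against 27.3% of all genes. Replicate 1 was lowest in both genotypes at once for 27 members (45.0%), against 11.9% of all genes. The grid of all members by library shows this as paler or bluer first columns within each genotype. It is clearest for NOP16 and NOP2, which were picked for their colour there. After removal of trends with GC content and transcript length within libraries, 4 members were called higher and 7 lower (18.3%), against 29.6% of all genes. The genes added there were TWISTNB, WDR43, RIOK2 and WDR12, all lower in KO.

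**Figure D2:**
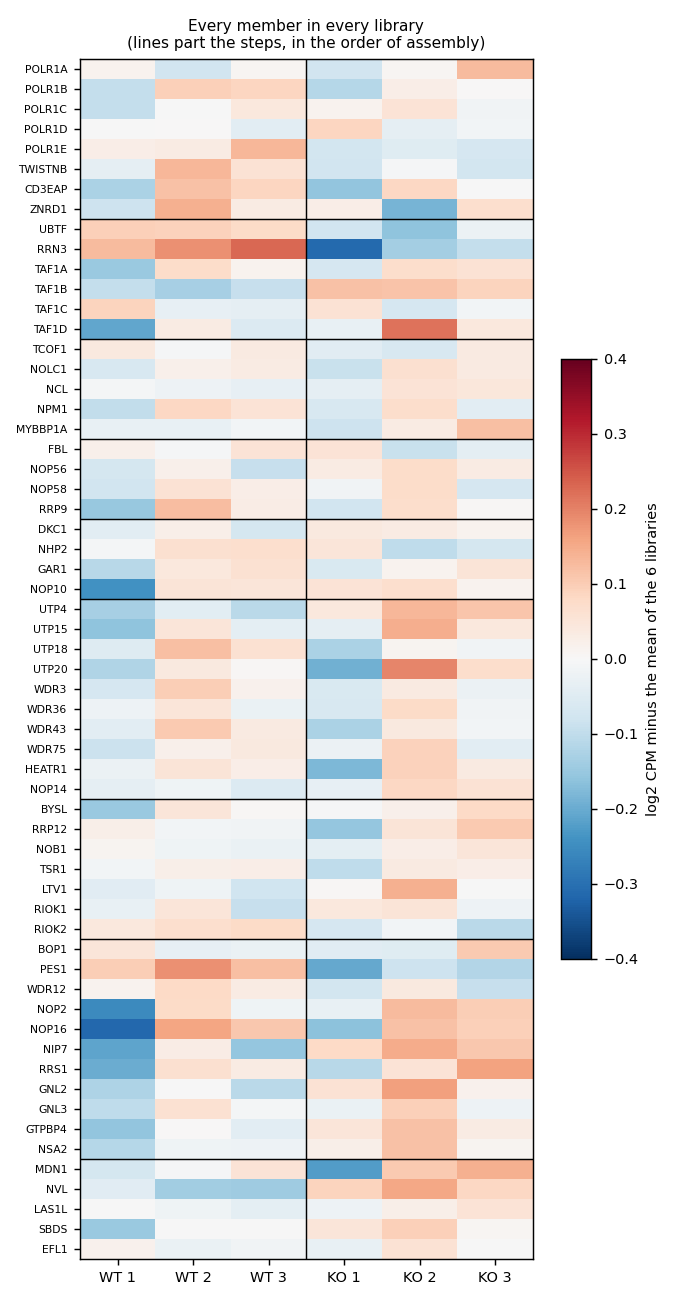
Log2 CPM of every gene in every library minus the mean of that gene over the 6 libraries, with genes in rows by step and libraries in columns. RRN3 and PES1 are red across WT and blue across KO, and TAF1B is the reverse.

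None of the 8 Pol I subunit transcripts passed the test without the block. POLR1A, the largest catalytic subunit, was at 212, 199 and 211 CPM in the WT libraries and at 199, 211 and 229 CPM in the KO libraries, with a log2 fold change of 0.026 and a 95% interval from −0.089 to 0.14. The values of the genotypes overlapped. POLR1B, the second catalytic subunit, was at 111, 126 and 126 CPM in WT and at 110, 121 and 118 CPM in KO, with a log2 fold change of −0.080 ± 0.060 (SE). Replicate 1 was the low library in both genotypes, and without WT replicate 1 POLR1B passed at an adjusted p of 0.044, in a range of 0.023 to 0.70 over all alternatives.

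POLR1C and POLR1D are the assembly subunits that Pol I shares with RNA polymerase III. POLR1C stood at 36.2, 38.6 and 39.7 CPM in WT and at 39.0, 40.1 and 38.2 CPM in KO, with an interval of the log2 fold change from −0.086 to 0.17. POLR1D stood at 75.04, 75.3 and 73.0 CPM in WT and at 79.9, 73.4 and 74.7 CPM in KO, with an interval from −0.082 to 0.12. Both overlapped between genotypes.

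POLR1E and TWISTNB encode subunits of the parts of Pol I that take part in starting transcription. POLR1E stood at 47.4, 47.6 and 51.0 CPM in WT and at 44.3, 45.0 and 44.4 CPM in KO, with every KO library under every WT library. Its log2 fold change was −0.13 ± 0.052 (SE), with an adjusted p of 0.088 without the block and 0.047 with it, in a range of 0.022 to 0.31 over all alternatives. TWISTNB stood at 81.5, 91.5 and 87.0 CPM in WT and at 79.2, 83.3 and 79.4 CPM in KO, with a log2 fold change of −0.11 ± 0.054 (SE). KO replicate 2 lay within the WT range. Its adjusted p was 0.15 without the block and 0.048 with it, in a range of 0.0041 to 0.45 over all alternatives. Without WT replicate 1 both genes also passed in the fit without the block. Their adjusted p values there were 0.040 for POLR1E and 0.026 for TWISTNB. The 8 other genes tested with midpoints within 2 Mb of TWISTNB had a median log2 fold change of −0.14, and 4 lay below TWISTNB. For POLR1E the 39 such genes had a median of 0.047, and 9 lay below POLR1E.

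CD3EAP, the partner of POLR1E, and ZNRD1, a small zinc-binding subunit, were the remaining members of the enzyme. CD3EAP stood at 45.6, 54.0 and 52.8 CPM in WT and at 44.6, 52.7 and 49.7 CPM in KO. ZNRD1 stood at 17.5, 20.5 and 19.0 CPM in WT and at 18.9, 16.3 and 19.5 CPM in KO. Both overlapped between genotypes, with log2 fold changes of −0.054 and −0.049 and intervals from −0.24 to 0.13 and from −0.24 to 0.14. Over the 8 subunits the log2 fold changes ran from −0.13 to 0.039 with a median of −0.051, and 3 of the 8 lay above 0.

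**Figure D3:**
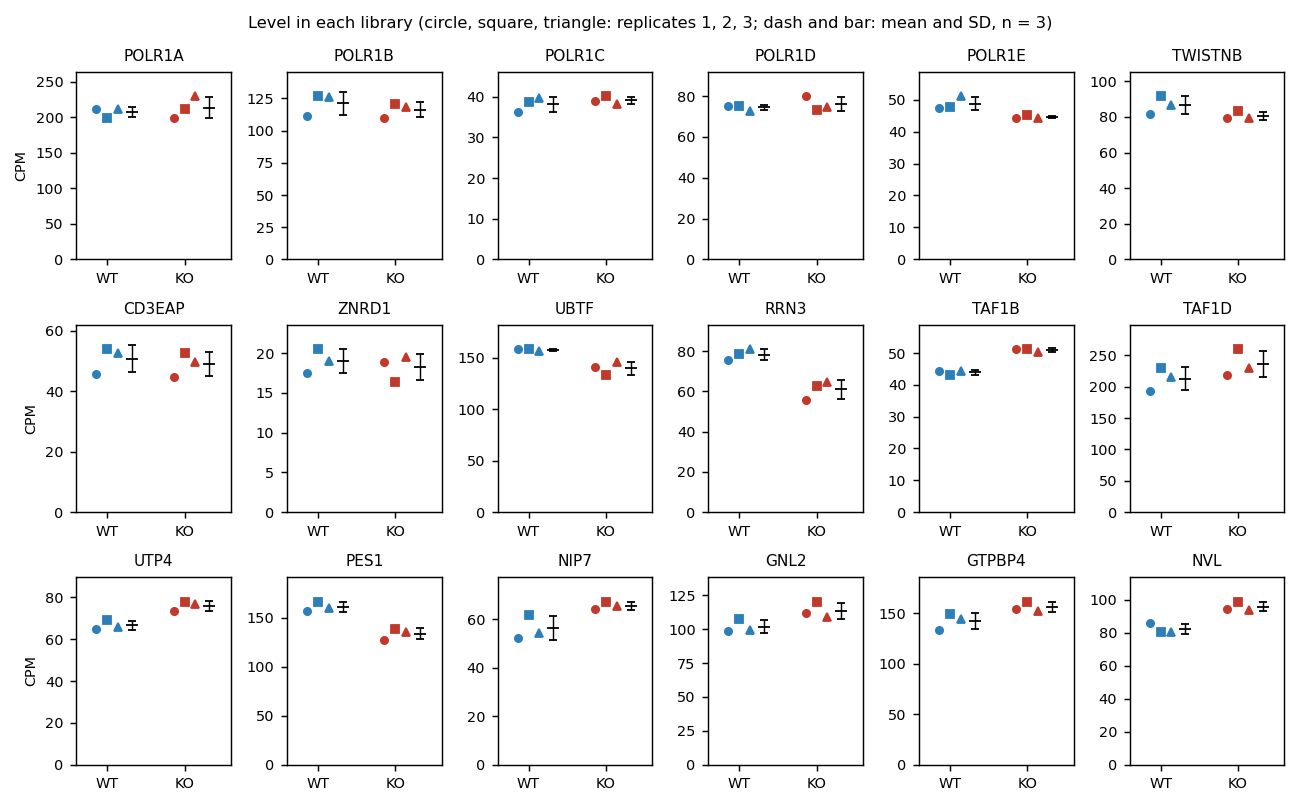
CPM in each library of the 8 Pol I subunit genes and of the 10 other genes called with or without the replicate block, with each axis starting at 0. WT and KO points are apart for POLR1E, UBTF, RRN3, TAF1B, UTP4, PES1, NIP7, GNL2, GTPBP4 and NVL, and they overlap for POLR1A, POLR1B, POLR1C, POLR1D, TWISTNB, CD3EAP, ZNRD1 and TAF1D.

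Among the 6 initiation factors, 3 passed the test, in opposite directions. RRN3, the factor that couples Pol I to its promoter, was at 75.4, 78.4 and 81.0 CPM in the WT libraries and at 55.6, 62.9 and 64.6 CPM in the KO libraries. Every KO library was under every WT library, and RRN3 fell by 0.36 ± 0.065 on the log2 scale (SE), with an adjusted p of 0.0023. It lies on chromosome 16 from 15060033 to 15094311 (GRCh38, minus strand). The 28 other genes tested with a midpoint within 2 Mb of that of RRN3 had a median log2 fold change of −0.42, and 20 of these 28 lay below RRN3. PDXDC1, which spans RRN3 on the opposite strand, and the RRN3 pseudogenes elsewhere on chromosome 16 can share reads with it. With the counts of the pseudogenes RRN3P1, RRN3P3 and RRN3P4 added, and of no other copy, RRN3 was at −0.26 with an adjusted p of 0.0030. Over all alternatives its adjusted p ran from 1.61e-06 to 0.011.

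UBTF, the architectural protein that binds along ribosomal DNA, stood at 159, 158 and 157 CPM in WT and at 141, 133 and 146 CPM in KO. The WT libraries were nearly equal and all lay above the KO libraries, and UBTF fell by 0.19 ± 0.044 on the log2 scale (SE), with an adjusted p of 0.0080. UBTF lies on chromosome 17 from 44205033 to 44221626 (minus strand), where the 99 neighbours within 2 Mb had a median of −0.023 and 19 of them lay below UBTF. TAF1B, the SL1 subunit that resembles a general initiation factor, stood at 44.2, 43.1 and 44.3 CPM in WT and at 51.3, 51.2 and 50.3 CPM in KO. The genotypes did not overlap, and TAF1B rose by 0.21 ± 0.045 (SE, log2 scale), with an adjusted p of 0.0065. On chromosome 2 from 9843443 to 9934416 (plus strand), 26 of the 28 neighbours of TAF1B lay below it, and their median was 0.015.

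TAF1D, another SL1 subunit and a host of small nucleolar RNA genes, was the most abundant initiation factor per exon length (26.7 CPM per kb in WT). It stood at 194, 229 and 216 CPM in WT and at 219, 260 and 230 CPM in KO, and the genotypes overlapped. Its log2 fold change was 0.14, with an adjusted p of 0.17 without the block and 0.016 with it, in a range of 0.016 to 0.52 over all alternatives. TAF1A was the least abundant (4.32 CPM per kb in WT). The log2 fold changes of the initiation factors not called in either fit were 0.050 for TAF1A and −0.0084 for TAF1C, neither with a stable sign over the alternatives. They are given since they complete SL1.

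The nucleolar phosphoproteins, which organize the nucleolus and accompany Pol I, included the most abundant transcripts of the 60. NPM1, which has processed pseudogenes that can take some of its reads, stood at 203 CPM per kb of exon in WT and TCOF1, the lowest of the 5, at 28.6 CPM per kb. The 5 log2 fold changes ran from −0.065 to 0.050, and none passed the test. Box C/D snoRNPs mostly direct 2′-O-methylation, and box H/ACA snoRNPs mostly direct pseudouridylation. The genes for box C/D proteins ran from −0.057 to 0.073, and those for box H/ACA proteins ran from −0.11 to 0.10. None of these 8 genes passed the test in either fit. NHP2 passed with quality weights (adjusted p 0.013) and without KO replicate 1 (0.036), in a range of 0.013 to 0.42 over all alternatives. Per exon length, FBL, the methyltransferase (90.0 CPM per kb in WT), and NHP2 (90.9 CPM per kb) were the highest of the respective sets, and RRP9 (23.6) and DKC1 (18.4) the lowest.

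**Figure D4:**
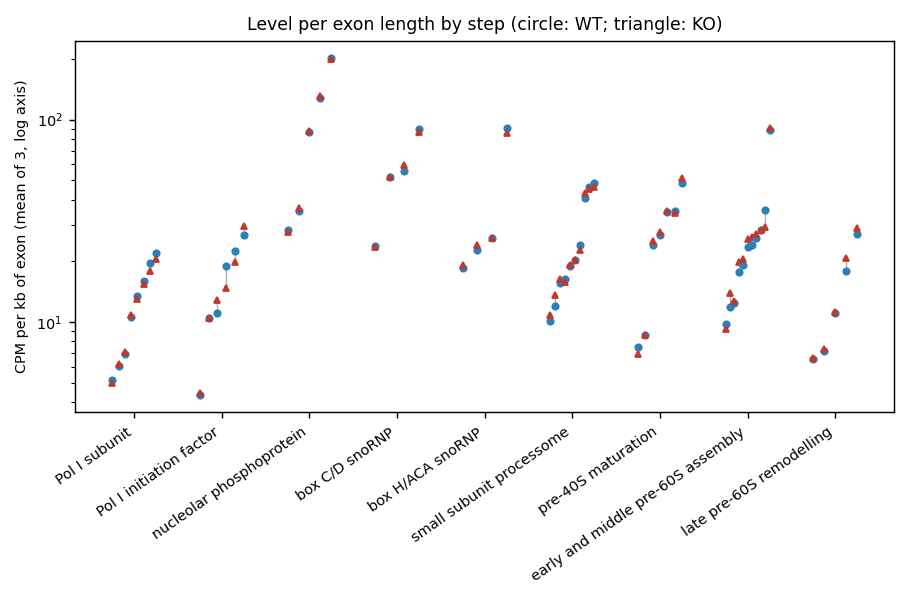
Mean CPM per kb of exon in WT (circles) and KO (triangles) for each of the 60 genes, sorted within each step, on a log axis. NPM1 is the highest at 203 in WT and TAF1A the lowest at 4.32, and the symbols of the genotypes nearly coincide for most genes.

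In the small subunit processome, 1 of 10 members passed the test. UTP4, a subunit of the UTP-A complex that binds the precursor early, stood at 64.9, 69.0 and 66.0 CPM in WT and at 73.2, 77.9 and 76.7 CPM in KO. All KO libraries lay above all WT libraries, and UTP4 rose by 0.19 ± 0.048 (SE, log2 scale), with an adjusted p of 0.016. The call was lost without WT replicate 3, KO replicate 2 or KO replicate 3, with adjusted p values of 0.058, 0.073 and 0.058 in a range of 0.0045 to 0.073 over all alternatives. UTP4 lies on chromosome 16 from 69131291 to 69231130 (plus strand), and 52 of its 79 neighbours lay below it, with a median of 0.077. The other 9 members lay between −0.077 and 0.10. WDR43 was the highest of the step per exon length (48.5 CPM per kb in WT) and UTP15 the lowest (10.1).

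None of the 7 factors of pre-40S maturation passed the test in either fit, and their log2 fold changes ran from −0.12 to 0.085. LTV1, a small subunit assembly factor (48.3 CPM per kb in WT), was the highest of them and RIOK2, an atypical kinase (7.51), the lowest. LTV1 and RIOK2 were also the 2 genes of the step in which the genotypes did not overlap, with LTV1 higher and RIOK2 lower in KO. RIOK2 had a log2 fold change of −0.12 with an adjusted p of 0.10, and it passed with quality weights (0.032), with the GC and length trend removed (0.011) and with this correction and the block together (0.0074), in a range of 0.0074 to 0.26.

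The early and middle steps of large subunit (pre-60S) assembly held 2 of the 7 called genes, in opposite directions. PES1, a subunit with BOP1 and WDR12 of the PeBoW complex that large subunit processing requires, stood at 157, 166 and 160 CPM in WT and at 127, 138 and 135 CPM in KO. The genotypes did not overlap, and PES1 fell by 0.29 ± 0.044 on the log2 scale (SE), with an adjusted p of 0.00099. PES1 lies on chromosome 22 from 30576625 to 30607083 (minus strand), and its 52 neighbours had a median of −0.34, with 33 of them below PES1. BOP1 and WDR12, the partners, had log2 fold changes of −0.012 and −0.092 with adjusted p values of 0.88 and 0.19. WDR12 passed with the GC and length trend removed (0.036, and 0.0098 together with the block, in a range of 0.0098 to 0.42), and BOP1 turned sign under that correction. Both are given since they complete the complex.

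NIP7 acts with FTSJ3 in ribosome assembly. NIP7 stood at 52.4, 61.9 and 54.5 CPM in WT and at 64.2, 67.3 and 65.3 CPM in KO. Every KO library lay above every WT library, and NIP7 rose by 0.23 ± 0.065 (SE, log2 scale), with an adjusted p of 0.023. The call was lost without WT replicate 3, KO replicate 2 or KO replicate 3 and without the CPM filter, with adjusted p values of 0.075, 0.094, 0.070 and 0.062 in a range of 0.0037 to 0.094. NIP7 lies on chromosome 16 from 69337996 to 69343106 (plus strand), in the same stretch as UTP4, and 51 of its 71 neighbours lay below it, with a median of 0.085.

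GNL2 and GTPBP4, GTPases of the pre-60S particle, were added to the called genes by the block. GNL2 stood at 98.6, 107 and 99.6 CPM in WT and at 112, 120 and 109 CPM in KO, with a log2 fold change of 0.14. Its adjusted p was 0.067 without the block and 0.013 with it, in a range of 0.013 to 0.24. Without the block, GNL2 also passed with total counts as library sizes (adjusted p 0.044) and without WT replicate 2 (0.038). GTPBP4 stood at 134, 149 and 145 CPM in WT and at 154, 162 and 153 CPM in KO, with a log2 fold change of 0.11. Its adjusted p was 0.12 without the block and 0.0495 with it, in a range of 0.0495 to 0.32, and the 6 neighbours of GTPBP4 had a median of 0.13. For both genes all KO libraries lay above all WT libraries. Of the 11 members of this step, 8 lay above 0, with a median of 0.065. GNL3, or nucleostemin, was the highest per exon length (89.2 CPM per kb in WT) and WDR12 the lowest (9.71).

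In late large subunit remodelling, 1 of 5 members passed the test. NVL, an AAA ATPase that releases assembly factors from the pre-60S particle, stood at 86.0, 80.7 and 80.4 CPM in WT and at 94.5, 98.8 and 94.1 CPM in KO. The genotypes did not overlap, and NVL rose by 0.21 ± 0.045 (SE, log2 scale), with an adjusted p of 0.0070. NVL lies on chromosome 1 from 224227334 to 224330189 (minus strand), and 26 of its 30 neighbours lay below it, with a median of 0.022. The other members, from the giant ATPase MDN1 to the release factors SBDS and EFL1, lay between −0.014 and 0.093. SBDS was the highest of the step per exon length (27.2 CPM per kb in WT) and EFL1 the lowest (6.53).

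The CPM values of the genotypes did not overlap in 15 of the 60 genes (25%), 10 higher and 5 lower in KO, against 42.2% of all genes tested. These were the 7 called genes, the block-called POLR1E, GNL2 and GTPBP4, and 5 genes that passed neither fit (NOP56, LTV1, RIOK2, NSA2 and SBDS, named after their values were seen).

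The called genes differed in what lay around them on the chromosome. The medians of the neighbours of RRN3 (−0.42) and PES1 (−0.34) lay below the values of these genes, and they were the only 2 of the 60 with a neighbour median under −0.2. For the other 58 genes the neighbour medians ran from −0.14 to 0.13. RRN3 and PES1 also lay within the middle 50% of their neighbours' values, and so did UTP4 (−0.011 to 0.24) and NIP7 (−0.0057 to 0.24). UBTF lay below that range of its neighbours (−0.11 to 0.079), and TAF1B (−0.17 to 0.081) and NVL (−0.099 to 0.13) lay above it. UTP4 and NIP7 lie in the same stretch of chromosome 16, so their 2 Mb windows overlap. Their neighbours had medians of 0.077 and 0.085, against 0.016 over all genes tested. NOB1, another member in that stretch and given for its position, had a neighbour median of 0.13. Its own log2 fold change was 0.016, with an adjusted p of 0.82 in the limma-voom fit without the block. A feature of the clone and an effect of the genotype cannot be told apart for any of the 60 genes, whatever the values of their neighbours. Apart from this, 25 of the 60 genes overlap another annotated gene with at least 60 counts over the 6 libraries, among them PES1 with TCN2, NIP7 with COG8 and UTP4 with SNTB2, and reads in such overlaps cannot be assigned with certainty.

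A sequence feature that choosing by symbol did not use was also shared by many of the genes. MYC and related factors bind the E-box CACGTG, which reads the same on both strands, and it was searched in the RefSeq promoters (GRCh38.p14, 250 bases before to 50 after each start). Of the 60 genes, 53 had a promoter entry, and POLR1E, TCOF1, NOLC1, NOP58, RRP12, BOP1 and RRS1 had none. The E-box occurred in 18 of the 53 (34.0%), against 7.26% of all 35116 promoters and 12.7% of the tested genes with an entry. Of the 21 E-box positions in these genes, 18 lay within 50 bases of the start. Over all promoters, 36.9% of E-box positions did. The 60 bases before the start are shown for the 4 genes in which the whole E-box lay inside that window. Other E-boxes lay across or after the start or farther before it, so these 4 genes do not show where the motif sits in general. The sequences are read 5′ to 3′ on the strand of the gene, with the E-box in capitals. They come from chr16:69132589-69132648 (plus strand) for UTP4, chr19:45406584-45406643 (plus) for CD3EAP, chr12:101280045-101280104 (plus) for UTP20 and chr15:34343137-34343196 (minus) for NOP10.
UTP4: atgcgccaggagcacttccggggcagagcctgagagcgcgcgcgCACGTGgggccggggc
CD3EAP: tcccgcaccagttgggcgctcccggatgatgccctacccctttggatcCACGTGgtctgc
UTP20: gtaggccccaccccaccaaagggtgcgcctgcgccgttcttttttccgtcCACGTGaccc
NOP10: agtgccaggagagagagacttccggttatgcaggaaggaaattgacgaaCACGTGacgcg

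The first base of the E-box stood at −16 in UTP4, −12 in CD3EAP, −11 in NOP10 and −10 in UTP20, counted from the start with −1 as the base just before it. The 18 genes with an E-box had a median log2 fold change of 0.025 with 2 called (UTP4 and PES1), and the 35 without it had a median of 0.017 with 5 called. A match describes these letters alone, and binding was not measured.

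Further genes of the pathway were taken from a list of 103 other ribosome biogenesis factors, all of them tested. Of these, 23 (22.3%) passed the test, 16 higher and 7 lower, against 26.7% of all genes, with a median log2 fold change of 0.058. With TMM library sizes the split was 10 higher and 8 lower, and the median was 0.039. Without WT replicate 3, KO replicate 2 or KO replicate 3, 11, 9 and 12 of them passed. The largest increases were those of PNO1, a pre-40S factor (0.31 ± 0.084, SE, adjusted p 0.020), EXOSC6, a subunit of the RNA exosome (0.26 ± 0.050, adjusted p 0.0035), and PWP2, a UTP-B subunit of the processome (0.26 ± 0.071, adjusted p 0.022). PNO1 and PWP2 lost the call without KO replicate 2 (adjusted p 0.091 and 0.093) and without KO replicate 3 (0.062 and 0.079), both also without the CPM filter (0.058 and 0.060), and PWP2 also without WT replicate 3 (0.066). Over all alternatives the adjusted p ran from 0.0014 to 0.091 for PNO1 and from 0.00058 to 0.093 for PWP2.

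The largest decreases in that list were those of RSL1D1, a nucleolar protein of large subunit assembly (−0.38 ± 0.038, SE, adjusted p 6.23e-05), SNU13, a core box C/D snoRNP protein (−0.34 ± 0.051, adjusted p 0.00077), and RRP7A, a processome factor (−0.29 ± 0.046, adjusted p 0.0010). RSL1D1 lies on chromosome 16, and its neighbours within 2 Mb had a median of −0.40. SNU13 and RRP7A lie on chromosome 22, with neighbour medians of −0.28 and −0.33. The genes at the lower end of this list thus lay, like RRN3 and PES1, among neighbours that were lower in KO.

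Of the 11 genes of RNA polymerase III outside the shared subunits, 7 (63.6%) passed the test, 2 higher and 5 lower, whereas none of the 8 Pol I subunits did. The difference between the enzymes was not tested. Of the 79 cytosolic ribosomal protein genes, the products that ribosome assembly consumes, 5 (6.33%) passed, 1 higher and 4 lower, with a median of −0.014. Of the 78 mitochondrial ribosomal protein genes, 15 (19.2%) passed, 12 higher and 3 lower, with a median of 0.070.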

How the data were processed

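RNA-seq was from 3 WT and 3 THUMPD1 KO libraries of HEK-293T total RNA depleted of ribosomal RNA. Reads were aligned with STAR to hg38 and quantified with RSEM, and the authors deposited expected counts per gene, unscaled between libraries; the strand setting is not given in the sources used here. Total counts of 32225646 to 44099898 limit precision. Names, positions and union exon lengths came from GENCODE 44 (99.4% of IDs matched). Genes reaching 1 CPM in 3 or more libraries were kept. Counts were quantile normalized as in the study, and limma-voom (limma 3.58.1, R 4.3.3) was run with genotype as the only term, two-sided, Benjamini-Hochberg adjusted over all 15088 genes. CPM values use total counts, given as mean ± SD. Deviations from genotype means correlated at 0.171, 0.147 and 0.138 between libraries with the same replicate number and from −0.140 to 0.0194 otherwise, so the numbers were taken to pair libraries. Other settings were a replicate block, edgeR 4.0.16 and DESeq2 1.42.0 on rounded counts, TMM or total library sizes, other filters, quality weights, GC and length correction, pseudogene counts added and each library left out. Members and lists were chosen with earlier results of these data known. THUMPD1, the Pol I subunits, every member called with or without the block, the highest and lowest member of each step, and the 3 largest changes each way of the other pathway genes were named, and exceptions are marked. The 2 Mb neighbours and the E-box were chosen after seeing the data.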

Additional observations from a re-analysis of the deposited data

How the results depend on the processing

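For 30 genes (the 8 Pol I subunits, 10 other members called with or without the block, 6 further members given with a direction and 6 other pathway genes), 510 results were computed under 17 alternatives, of which 486 kept their direction and 452 also their side of the threshold. RRN3, UBTF, PES1, TAF1B and NVL were called under all 17. The number of members called rose from 7 to 12 with the replicate block (7 higher, 5 lower), to 11 with quality weights (7 lower), to 11 with the GC and length trend removed (7 lower) and to 17 with the block and that correction together (7 higher, 10 lower). All genes called rose too, from 4025 to 5297, 5510, 4468 and 5677 in these fits. An adjusted p under 0.01 left 2 higher members. Leaving out each library in turn gave 5 to 10 members, with 2 to 5 higher and 3 to 6 lower. Other pathway genes called fell from 23 to 12 without the CPM filter and to 7 at an adjusted p under 0.01, and lay between 9 and 21 with a library left out. All genes called fell to 2083 at an adjusted p under 0.01, and lay between 2663 and 4245 with a library left out. Among these 30 genes the signs that turned were of uncalled genes, and the cause was not tested. With quality weights they were POLR1C (−0.0030), TAF1C (0.0089) and BOP1 (0.028), with total counts as library sizes BOP1 (0.0056), with the GC and length trend removed TAF1A (−0.0094), TAF1C (0.073) and BOP1 (0.092), and with the block as well TAF1A (−0.014), TAF1C (0.072) and BOP1 (0.092). With a library left out they were POLR1A (−0.024 to 0.064), POLR1C (−0.0092 to 0.073), POLR1D (−0.014 to 0.041), CD3EAP (−0.14 to 0.025), ZNRD1 (−0.13 to 0.019), TAF1A (−0.048 to 0.12), TAF1C (−0.037 to 0.024) and BOP1 (−0.059 to 0.014). With the replicate block, no member called without it was lost. No member had fewer than 424 counts in any library, and their median SE was 0.051 against 0.070 over all genes.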

Other observations

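The product of Pol I was measured only by what ribosomal RNA depletion left. The 3 rows for 5.8S ribosomal RNA on chromosome 21, looked up after the values of the members were seen, show how estimation over identical copies can set a row. RNA5-8SN2 and RNA5-8SN3 had the same values in every library, 22.2, 20.8 and 9.31 CPM in WT and 6.10, 9.35 and 7.47 CPM in KO, and limma-voom gave each a log2 fold change of −1.13 (adjusted p 0.021, in a range of 0.00010 to 0.087 over all alternatives). RNA5-8SN1 had 0.0088, 0.59 and 9.31 CPM in WT and the same KO values, and the same fit gave it a log2 fold change of 3.86 (adjusted p 0.030), which was 1.22 with edgeR (0.32) and 1.64 with the block (0.17), in a range of 0.00086 to 0.73 over all alternatives. Summed over the 3 rows, the level was 44.4, 42.3 and 27.9 CPM in WT and 18.3, 28.1 and 22.4 CPM in KO, and the genotypes overlapped. The mitochondrial ribosomal RNAs, which Pol I does not make, were also highest in WT replicate 1, with MT-RNR2 at 82.5 CPM there and between 28.7 and 44.2 CPM in the other 5 libraries. How far depletion differed between libraries was not tested.

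Small nucleolar RNA genes lie inside 9 of the 60 members on the same strand, 34 in all. Of these, 19 were at 0 in every library, and the highest summed count over the 6 libraries was 134, so the guide RNAs of the snoRNPs were barely sampled by these libraries.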
